A study of Mus musculus with 4 samples.

Results

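The gene segments that encode the alpha and beta chains of the T cell receptor (TCR) were described in sorted mouse T cells. Members were all rows whose gene symbol begins with Trav, Traj, Trbv, Trbd or Trbj followed by a digit, which gave 100 of the 16338 rows. They comprised 50 variable (V) and 27 joining (J) segments of the alpha chain and 9 V and 14 J segments of the beta chain. GENCODE M21, on the mouse build GRCm38 (mm10), annotates 239 such segments, of which 128 are Trav, 60 Traj, 35 Trbv, 14 Trbj and 2 Trbd. All 14 Trbj segments were among the rows, and no Trbd segment was analysed here. Of the 100 members, 7 are annotated as pseudogenes.

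RNA sequencing gave 4 libraries of mouse T cells that carried 1 of 2 receptors, labelled TRP1high and TRP1low, and had been stimulated for 48 h by B cells loaded with the K8 or the M9 peptide. The series concerns CD8 T cells and peptides that differ in their binding to MHC class I, the molecule that presents peptides to these cells. Sorting by flow cytometry separated the T cells from the B cells before total RNA was prepared. The sources used here give no strain, age or genotype, and do not say how a receptor was introduced or whether the cells could also express receptors of their own. With 1 library in each group there are no replicates, so each comparison is between libraries and cannot be set against the spread between cultures. Where 4 values follow one another, the first pair is from TRP1high and the second from TRP1low, each pair with K8 first and M9 second.

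A T cell receptor gene is assembled in the thymus, where the RAG recombinase joins a V segment to a J segment in the alpha locus, and a V, a diversity (D) and a J segment in the beta locus. The joined segments are transcribed with a constant gene, Trac for the alpha chain and Trbc1 or Trbc2 for the beta chain. The alpha locus can rearrange repeatedly, each time using V segments farther 5′ and J segments farther 3′, because the DNA between the joined ends is removed. Each of the paired beta clusters holds its own D segment, its own J segments and its own constant gene. A clone of T cells is recognised by the segments that its chains use.

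The J segments that led their kind or stood next in abundance are shown first, since the libraries differed in which of them led. Sequences are the GENCODE M21 reference, 5′ to 3′, and were not read from the libraries. Capitals mark the motif TTCGGNNNNGGN or TTTGGNNNNGGN, searched on both strands, which codes for the phenylalanine and glycine motif of J regions. It was found on the coding strand of 43 of 60 annotated Traj segments (71.7%) and of 11 of 14 Trbj segments (78.6%), and on the other strand of none. Traj42 (chr14:54175773-54175836) and Traj26 (chr14:54194490-54194549) lie in the alpha locus. Trbj1-1 (chr6:41533864-41533911) and Trbj1-2 (chr6:41534001-41534048) lie in the first beta cluster, and Trbj2-1 (chr6:41542754-41542803) and Trbj2-7 (chr6:41543810-41543856) in the second. All are on the plus strand.
Traj42: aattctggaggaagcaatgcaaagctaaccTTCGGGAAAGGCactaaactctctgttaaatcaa
Traj26: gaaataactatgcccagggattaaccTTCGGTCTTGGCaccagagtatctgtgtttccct
Trbj1-1: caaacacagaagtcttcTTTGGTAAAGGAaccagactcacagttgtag
Trbj1-2: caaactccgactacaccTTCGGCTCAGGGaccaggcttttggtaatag
Trbj2-1: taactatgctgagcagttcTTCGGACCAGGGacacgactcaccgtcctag
Trbj2-7: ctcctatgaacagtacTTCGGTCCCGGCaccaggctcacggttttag

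The alpha V segments are shown next because copies of a duplicated stretch of the locus shared the reads of TRP1high. The coding exons of each are joined, positions are counted from the start codon, and a stretch of the V segments is shown. Trav6-6 (chr14:53516929-53517366) and Trav6d-6 (chr14:52821922-52822359) have the same 344 bases. Trav6n-6 (chr14:53132679-53133137) matches them at 335 of 344 bases, with the substitutions T45G, C57T, C86A, C93T, G106A, C149G, A271G, T333C and G340A, given as the base of Trav6-6, the position and the base of Trav6n-6. Positions 41 to 340 are shown, and capitals mark these 9 bases.
Trav6-6: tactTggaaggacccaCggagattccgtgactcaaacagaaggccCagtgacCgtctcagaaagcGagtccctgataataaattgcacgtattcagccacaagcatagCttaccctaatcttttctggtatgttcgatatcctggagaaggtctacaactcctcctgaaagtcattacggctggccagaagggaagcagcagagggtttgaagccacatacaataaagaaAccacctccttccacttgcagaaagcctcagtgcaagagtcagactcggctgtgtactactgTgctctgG
Trav6n-6: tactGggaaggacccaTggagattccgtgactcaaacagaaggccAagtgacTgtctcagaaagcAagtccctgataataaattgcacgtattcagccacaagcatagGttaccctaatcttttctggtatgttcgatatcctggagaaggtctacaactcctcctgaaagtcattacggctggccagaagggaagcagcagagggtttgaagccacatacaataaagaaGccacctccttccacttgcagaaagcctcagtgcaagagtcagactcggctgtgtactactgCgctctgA

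Trav6-5 (chr14:53491115-53491622), the leading alpha V segment of TRP1low, matches Trav6-6 at 260 of 344 aligned bases. Its longest run in common with Trav6n-6 is 77 bases, at positions 250 to 326 of Trav6-5, and stands in capitals in the stretch from 200 to 338. Its longest run in common with Trav6-6 is 68 bases. A read that lies within such a run cannot tell the segments apart.
Trav6-5: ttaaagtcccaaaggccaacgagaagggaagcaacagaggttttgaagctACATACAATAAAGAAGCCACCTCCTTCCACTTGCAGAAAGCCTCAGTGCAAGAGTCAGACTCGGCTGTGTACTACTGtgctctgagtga

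In the beta locus, Trbv13-3 (chr6:41130147-41130585) is set beside Trbv13-2 (chr6:41121396-41121832), the next in abundance in TRP1high. They match at 308 of 340 bases and differ at 32, of which capitals mark the 25 between positions 41 and 340. Their longest shared run is 50 bases.
Trbv13-3: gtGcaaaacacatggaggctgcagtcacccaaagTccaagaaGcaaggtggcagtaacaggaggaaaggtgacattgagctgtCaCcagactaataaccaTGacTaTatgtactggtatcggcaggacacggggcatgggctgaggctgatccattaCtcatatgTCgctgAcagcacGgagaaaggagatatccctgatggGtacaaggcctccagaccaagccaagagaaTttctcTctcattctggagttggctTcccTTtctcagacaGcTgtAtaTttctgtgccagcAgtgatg
Trbv13-2: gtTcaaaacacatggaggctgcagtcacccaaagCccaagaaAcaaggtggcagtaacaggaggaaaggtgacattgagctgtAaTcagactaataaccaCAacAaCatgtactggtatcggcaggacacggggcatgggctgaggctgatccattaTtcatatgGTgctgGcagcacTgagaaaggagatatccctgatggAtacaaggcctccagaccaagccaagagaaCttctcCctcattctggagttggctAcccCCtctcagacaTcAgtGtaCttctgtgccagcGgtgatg

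Trbv12-1 (chr6:41113550-41114067), the leading beta V segment of TRP1low, differs from Trbv12-2 at 44 of 372 bases, of which capitals mark the 32 between positions 73 and 372. Their longest shared run is 44 bases.
Trbv12-1: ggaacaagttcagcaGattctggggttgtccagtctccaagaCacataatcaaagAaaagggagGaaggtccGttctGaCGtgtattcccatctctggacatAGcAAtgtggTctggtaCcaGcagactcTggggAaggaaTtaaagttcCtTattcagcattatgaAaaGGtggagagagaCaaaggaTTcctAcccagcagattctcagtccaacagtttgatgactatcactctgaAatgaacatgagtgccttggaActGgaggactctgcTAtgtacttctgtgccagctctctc

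The files hold log2 normalized counts plus 1. Undoing the logarithm and taking 1 away gave normalized counts, and dividing by the worth of 1 read in each library gave estimated reads. The libraries held 29.6 M to 41.5 M estimated reads, with the fewest in TRP1low with K8. The members took 10585 and 14148 of them with K8 and M9 in TRP1high, and 12369 and 15331 in TRP1low. These are 0.0261%, 0.0341%, 0.0417% and 0.0380% of each library. At least 3 estimated reads, the most that a count of 0 allows for, were found on 44 and 46 members in TRP1high and on 62 and 69 in TRP1low. Over all libraries, 23 members had at least 3 reads in each, 90 had them in at least 1, and 3 were at 0 in each. The CD8 marker Cd8a stood at 20552 to 36073 normalized counts and the CD4 marker Cd4 at 0 to 25.5. Among the other CD4 markers listed, Zbtb7b stood at 2.40 to 105, Foxp3 at 1.40 to 22.4 and Cd40lg at 5.99 to 17.8. With K8, Zbtb7b and Foxp3 were higher in TRP1high than in TRP1low, while Cd4 and Cd40lg were lower. The 11 B cell markers summed to 2078 and 244 estimated reads with K8 and M9 in TRP1high and to 1061 and 397 in TRP1low. Of these 11, Pax5 and Cr2 were at 0 in TRP1high with M9 and Cr2 in TRP1low with M9.

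In each library 1 segment, or 1 set of near-identical copies, led its kind, and the leading segment of each kind was different in TRP1high and TRP1low. Shares are of the estimated reads of the kind within a library, with 95% Wilson intervals, which cover counting error only because the reads carry no molecular identifiers. The lead was strongest for Trbv in TRP1low and weakest for Trbj in all 4 libraries. The plot of shares by kind shows this pattern.

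**Figure D1:**
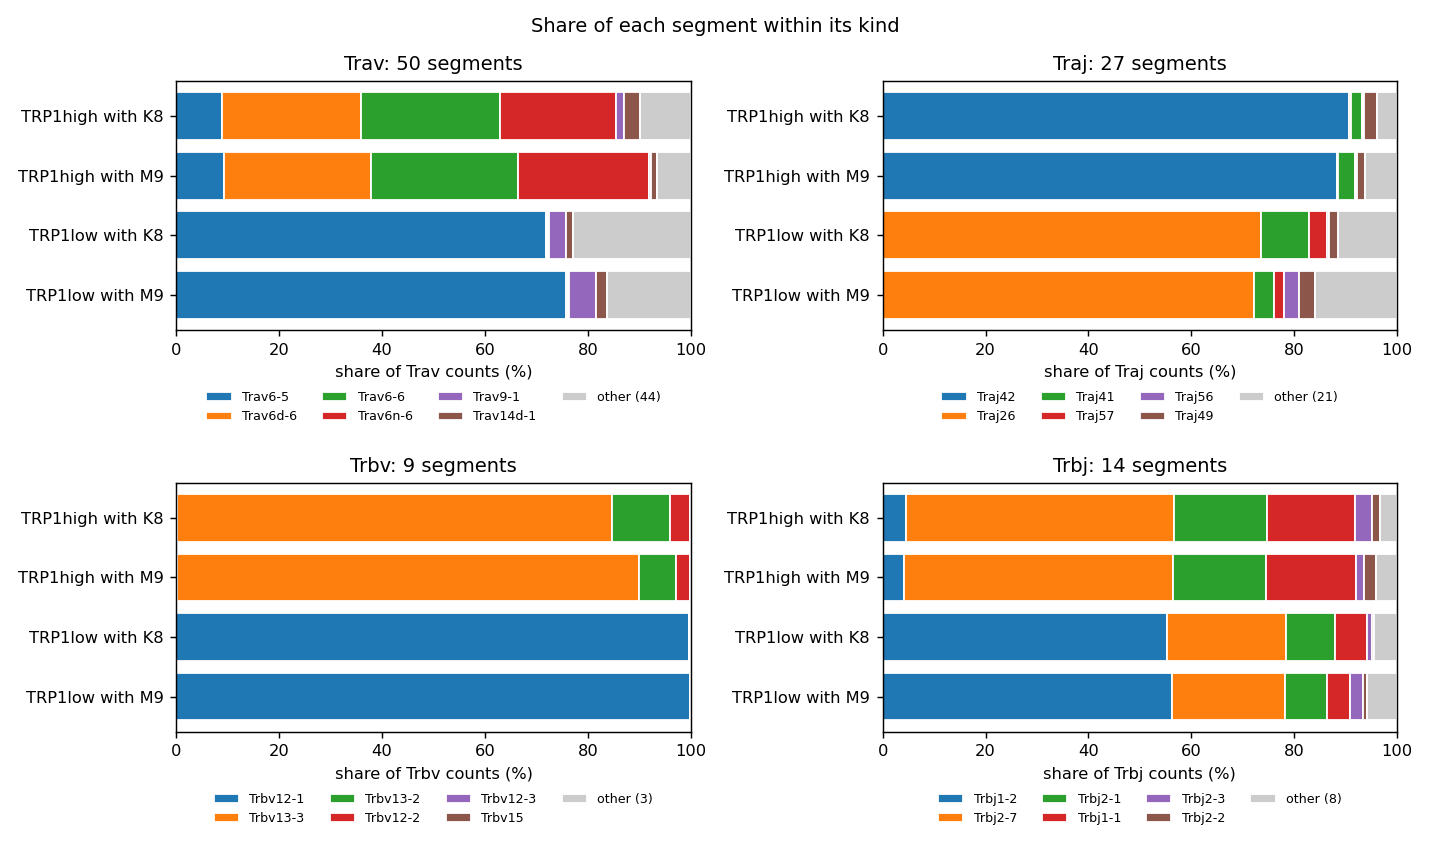
Share (%) of each segment in the counts of its kind, for Trav, Traj, Trbv and Trbj in the 4 libraries, with the 6 highest segments coloured and all others in grey. The blocks of Trav6-6, Trav6d-6 and Trav6n-6 stand in TRP1high and the long Trav6-5 block in TRP1low, while the Trbj panel keeps sizeable minor blocks in every library.

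Among the alpha V segments, 588 and 744 reads in TRP1high, and 3 and 4 in TRP1low, were estimated for Trav6-6. Trav6d-6, with the same coding sequence, had exactly the same values in every library. Trav6n-6 had 491, 665, 2 and 4. All 3 copies were thus high in both TRP1high libraries and at 4 reads or fewer in both TRP1low libraries. Summed as 1 segment, they held 76.7% (74.9 to 78.5) of Trav reads in TRP1high with K8 and 82.6% (81.0 to 84.0) with M9, against 27.1% and 28.5% for Trav6-6 alone. Trav6n-6 had 83.6 reads for each 100 of the Trav6-6 row with K8 (73.9 to 94.3) and 89.4 with M9 (80.4 to 99.4). These values compare rows, not sequences, because the identical Trav6d-6 row held as many reads again. Trav6n-6 was therefore lower still against the identical rows together. The summed copies were 152-fold higher in TRP1high than in TRP1low with K8 (95% exact counting interval 77.0 to 353) and 169-fold higher with M9 (96.7 to 328).

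Trav6-5 had 191 and 242 reads in TRP1high and 1077 and 1663 in TRP1low. It was the highest minor Trav segment in both TRP1high libraries, with 8.79% (7.67 to 10.1) and 9.30% (8.22 to 10.5) of Trav reads. For each 100 reads of the Trav6-6 copies there were 11.5 reads of Trav6-5 with K8 (9.81 to 13.3) and 11.3 with M9 (9.80 to 12.8), so the proportion was alike in both TRP1high libraries. The other way round, the Trav6-6 copies had 0.743 reads for each 100 of Trav6-5 in TRP1low with K8 (0.320 to 1.47) and 0.722 with M9 (0.372 to 1.26). How far the reads of Trav6-5 in TRP1high came from the shared runs was not tested.

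Exact copies were a feature of the Trav rows. In 6 pairs both members had the same value in every library, and in each pair the annotated transcripts were identical over their whole length. Besides Trav6-6 and Trav6d-6, these included Trav14d-1 and Trav14n-1, at 67.5, 32.1, 20.5 and 47.3 estimated reads each. Such values are 1 measurement divided between 2 rows, and a count of Trav members counts both. Trav6n-5 and Trav6d-5, annotated at 98.8% and 95.9% identity to Trav6-5, were not analysed here, so no copies of Trav6-5 could be summed.

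The other Trav segments held few reads each but were more widely spread in TRP1low. All Trav segments other than the leading one and its copies made up 23.3% (21.5 to 25.1) and 17.4% (16.0 to 18.9) of Trav reads in TRP1high, and 28.0% (25.9 to 30.4) and 24.3% (22.6 to 26.1) in TRP1low. Of 47 such segments, 18 and 15 had at least 3 reads in TRP1high. Of 49 in TRP1low, 31 and 38 had at least 3 reads, although TRP1low with K8 was the shallowest library and its total of 1496 Trav reads was the lowest of the 4, against 2172, 2608 and 2197. The median of these segments was 1 and 0 reads in TRP1high, and 5 and 5 in TRP1low.

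Trav9-1 had 32 and 9 reads in TRP1high and 49 and 117 in TRP1low, where it was the highest minor Trav segment. Trav21-dv12, whose symbol marks a V segment shared with the delta locus, had 2 and 0 reads in TRP1high and 36 and 34 in TRP1low. Trav17 had 0 and 2 reads in TRP1high and 21 and 21 in TRP1low. Trav6-7-dv9 had 11 and 0 reads in TRP1high and 18 and 29 in TRP1low. These 4 were higher in both TRP1low libraries than in either TRP1high library. Trav13-3 (5, 13, 0 and 36 reads) and Trav12d-3 (0, 0, 22 and 0) did not separate by receptor. Trav13-3 is annotated as a pseudogene, and Trav12d-3 had reads in 1 library alone.

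The minor Trav reads differed in where they lay along the locus. Among rows, 21 Trav segments lie 3′ of Trav6-6, between it and the J segments. They held 57.5 reads in TRP1high with K8, or 2.64% of Trav reads (2.03 to 3.38), and 25.2 reads with M9, or 0.967% (0.650 to 1.41). In TRP1low the same segments held 156 reads with K8, or 10.4% (8.98 to 12.1), and 203 with M9, or 9.25% (8.10 to 10.5). In TRP1high, 13 and 16 of the 21 were at 0, against 6 and 3 in TRP1low. Trav12-2, Trav5-4, Trav8-2, Trav16 and Trav14-3, named after their values were seen, were at 0 in both TRP1high libraries and had at least 3 reads in both TRP1low libraries.

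Over the whole locus, 11 of 50 Trav segments were at 0 in both TRP1high libraries with at least 3 reads in both TRP1low libraries, and they include 1 pair of exact copies. The reverse held for 1 segment, Trav7d-4, named after its values were seen, with 19 and 33 reads in TRP1high and 0 and 0 in TRP1low. The shares of all genes with these patterns were not counted, here or for the 5 segments above, so these counts are descriptive. Of all 16338 genes, 633 and 672 were at 0 in TRP1high and 1205 and 769 in TRP1low. The 25 segments 5′ of Trav6-6, without Trav6-5 and the copies, held 11.8% and 7.15% of Trav reads in TRP1high and 17.1% and 14.5% in TRP1low. With Trav6-5 and the copies left out, segments on both sides therefore held a larger share in TRP1low. On the 5′ side this rests on leaving out Trav6-5, which held 8.79% and 9.30% of Trav reads in TRP1high. With Trav6-5 counted as a minor segment of TRP1high, the 5′ minor share was the larger in TRP1high with either peptide. Since Trav6-5 lies 5′ of Trav6-6, 22 segments lie 3′ of the leading segment of TRP1low, and they are the same 21 and Trav6-6.

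**Figure D2:**
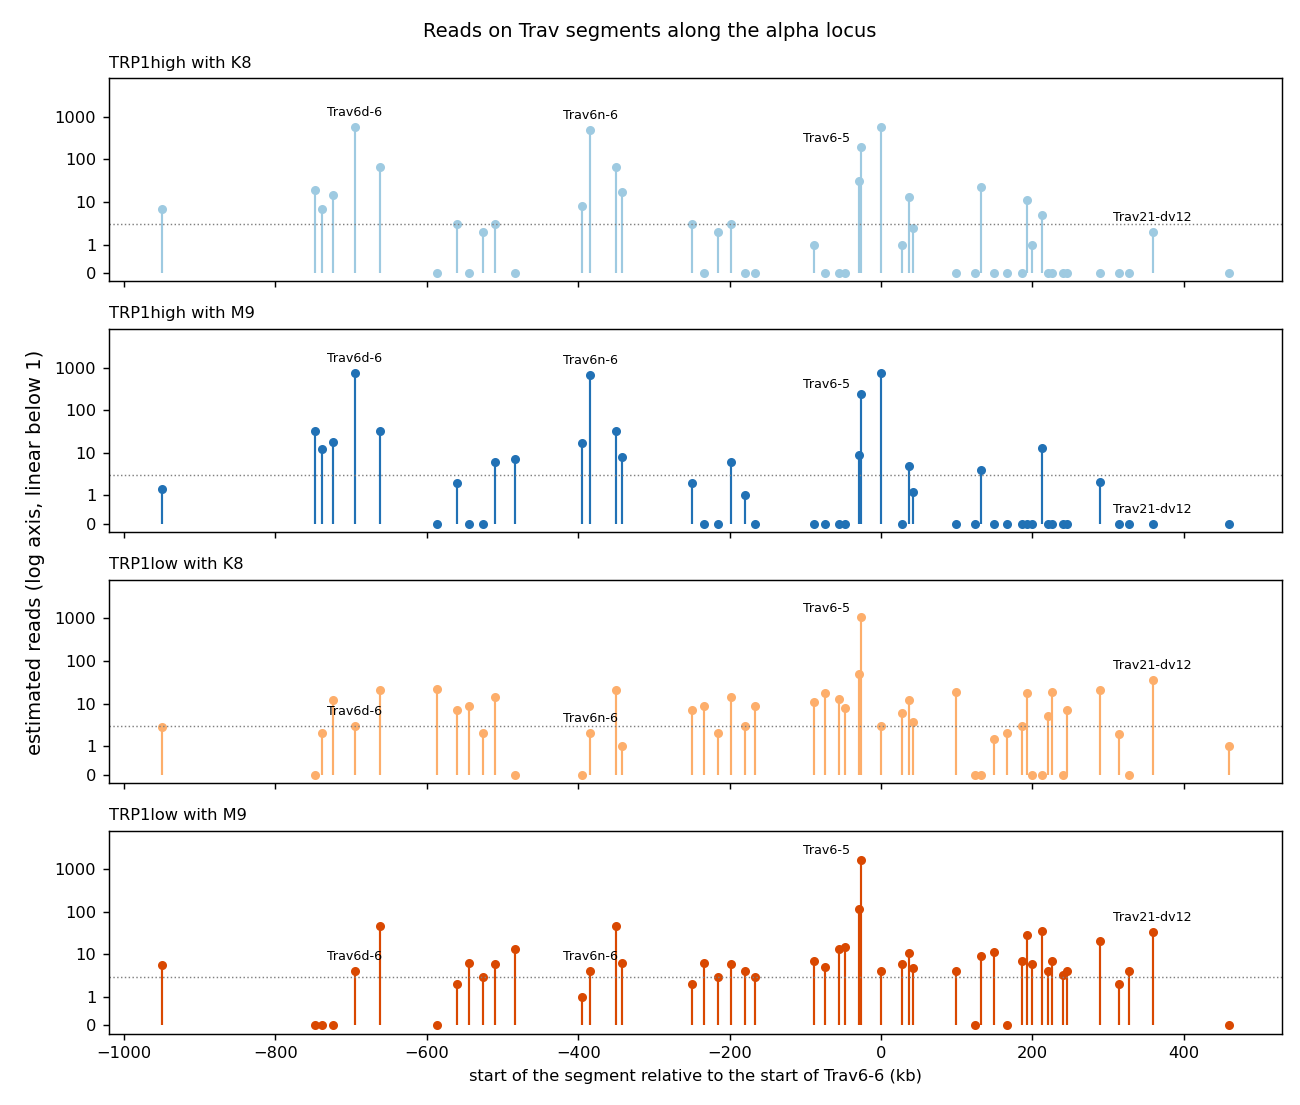
Estimated reads (log axis, linear below 1) on the 50 Trav segments in each library, against the distance (kb) of each segment's start from that of Trav6-6, with a dotted line at 3 reads. To the right of 0, 13 and 16 of 21 segments sit at 0 in TRP1high and 6 and 3 in TRP1low.

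Among the alpha J segments, Traj42 had 801 and 934 reads in TRP1high and 0 and 0 in TRP1low. Traj26 had 3 and 2 reads in TRP1high and 172 and 290 in TRP1low. The receptors were thus fully apart for both segments. Against a floor of 3 reads per library, Traj42 was at least 195-fold higher in TRP1high with K8 and with M9 the bound was 294-fold. In TRP1low a count of 0 allowed a Traj42 share of up to 1.28% of Traj reads with K8 and 0.748% with M9.

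Minor Traj segments made up 9.29% (7.54 to 11.4) and 11.7% (9.92 to 13.8) of Traj reads in TRP1high and 26.5% (21.3 to 32.5) and 27.7% (23.5 to 32.3) in TRP1low. Those larger shares came with smaller totals. All Traj segments had 883 and 1058 reads in TRP1high and 234 and 401 in TRP1low. In reads, the minor Traj segments held 82.0 and 124 in TRP1high and 62.0 and 111 in TRP1low, so their number of reads was similar between the receptors while the reads of the leading segment were not.

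Traj41, the neighbour of Traj42 on its 3′ side, had 20 and 36 reads in TRP1high and 22 and 15 in TRP1low. It was the highest minor J segment in 3 of the 4 libraries. Traj49 had 23, 17, 4 and 12 reads, Traj39 had 5, 23, 3 and 10, and Traj37 had 5, 16, 3 and 5. Traj58 was nearly level at 5, 5, 4 and 4. Traj57 had 1 and 1 reads in TRP1high and 8 and 8 in TRP1low, which was the clearest separation by receptor among the minor J segments named. Traj56 had 1, 3, 1 and 12 reads, Traj40 had 6, 0, 5 and 0, Traj32 had 0, 2, 0 and 6 and Traj7 had 0, 3, 2 and 6. Most of these counts overlapped between the receptors.

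The position of minor J reads was set against that of the leading J segment. In TRP1high, 14 segments lie between Traj42 and Trac and 12 on the far side. The 14 held 45 of 82.0 minor reads with K8 (54.9%, 44.1 to 65.2) and 88 of 124 with M9 (71.0%, 62.4 to 78.2). In TRP1low, 6 segments lie between Traj26 and Trac and 20 on the far side. The 6 held 6 of 62.0 minor reads with K8 (9.68%, 4.51 to 19.5) and 18 of 111 with M9 (16.2%, 10.5 to 24.2).

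Per segment, these counts come to 3.21 and 6.29 reads on the 3′ side of Traj42 against 3.1 and 3.0 on the other side, and to 1 and 3 reads on the 3′ side of Traj26 against 2.80 and 4.65. Minor reads were therefore found on both sides of the leading J in all 4 libraries. In TRP1high the value turned on single segments: without the highest minor segment it was 76.3% with K8, where Traj49 was left out, and 59.1% with M9, where Traj41 was left out.

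**Figure D3:**
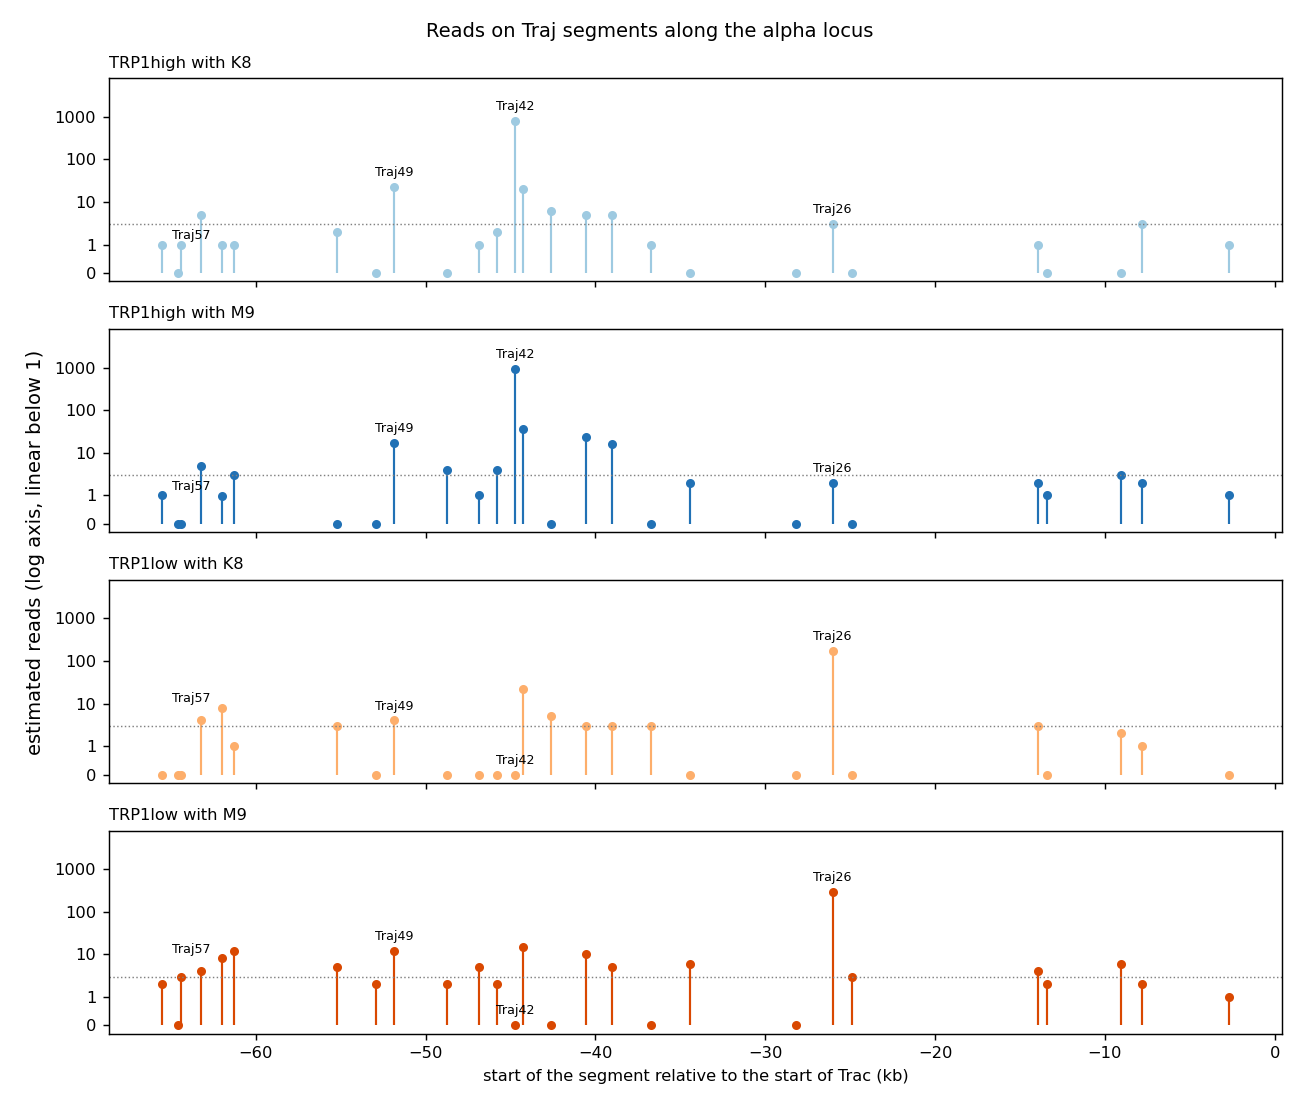
Estimated reads (log axis, linear below 1) on the 27 Traj segments in each library, against the distance (kb) of each segment's start from that of Trac, with a dotted line at 3 reads. Traj42 stands out in TRP1high at 801 and 934 reads and Traj26 in TRP1low at 172 and 290, and minor segments reach at most 36 reads.

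Among the beta V segments, Trbv13-3 had 5516 and 8286 reads in TRP1high and 4 and 2 in TRP1low, and Trbv12-1 had 1 and 3 reads in TRP1high and 8685 and 10580 in TRP1low. With K8, Trbv13-3 was 1006-fold higher in TRP1high than in TRP1low (393 to 3695), and with M9 it was 3909-fold higher (1082 to 32279). The widths of these intervals come from the 4 and 2 reads in TRP1low. Each leading beta V segment was thus nearly confined to 1 receptor.

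The minor Trbv reads were the largest contrast among minor segments. They made up 15.2% (14.4 to 16.1) and 10.1% (9.46 to 10.7) of Trbv reads in TRP1high, but 0.401% (0.289 to 0.558) and 0.142% (0.0858 to 0.233) in TRP1low. In TRP1high nearly all of them lay on Trbv13-2 and Trbv12-2, while in TRP1low the few minor reads were spread more widely, and with M9 Trbv31 was the highest at 8 of 15. Trbv13-2 had 731 and 666 reads in TRP1high and 12 and 3 in TRP1low. Trbv12-2 had 247 and 251 reads in TRP1high and 7 and 1 in TRP1low. Both were therefore abundant with 1 receptor alone, and neither TRP1low library came near the TRP1high values.

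These 2 segments did not keep step with Trbv13-3. Its M9 library was 1.49-fold its K8 library in TRP1high (1.44 to 1.54), against 0.903-fold (0.812 to 1.004) for Trbv13-2 and 1.01-fold (0.842 to 1.21) for Trbv12-2. For each 100 reads of Trbv13-3 there were 13.3 reads of Trbv13-2 with K8 (12.3 to 14.3) and 8.04 with M9 (7.42 to 8.70), and 4.48 (3.93 to 5.09) and 3.03 (2.66 to 3.43) of Trbv12-2. Between themselves, Trbv12-2 had 33.8 reads for each 100 of Trbv13-2 with K8 (29.1 to 39.1) and 37.7 with M9 (32.5 to 43.6). The proportion of Trbv12-2 to Trbv13-2 thus overlapped between the peptides within counting error, while the proportion of each to Trbv13-3 did not. The summed B cell markers were also lower with M9 (2078 and 244 reads), and their part in this result was not tested.

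Trbv12-1 differs from Trbv12-2 at 44 bases and Trbv13-3 from Trbv13-2 at 32, as shown above. How far shared stretches moved reads between these segments was not tested. In TRP1low there were 0.0806 reads of Trbv12-2 for each 100 of Trbv12-1 with K8 (0.0324 to 0.166) and 0.00945 with M9 (2.39e-04 to 0.0527). Along the locus, the 6 segments 5′ of Trbv13-3 held 987 and 927 reads in TRP1high, and Trbv15, on its 3′ side, held 0 and 0. In TRP1low the 6 segments 3′ of Trbv12-1 held 31 and 7 reads, and Trbv8, on its 5′ side, held 0 and 0. Trbv31, which lies inverted beyond the constant genes, had 2, 0, 4 and 8 reads and was left out of these sums. Trbv8, Trbv15 and Trbv31 are named after their values were seen, as the end members of the row.

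The beta J segments behaved differently from the other kinds, since several were abundant in all libraries. Trbj2-7 had 535 and 666 reads in TRP1high and 444 and 470 in TRP1low. It led TRP1high with 52.2% (49.2 to 55.3) and 52.4% (49.7 to 55.2) of Trbj reads and was second in TRP1low with 23.1% (21.3 to 25.1) and 22.0% (20.3 to 23.8). In normalized counts it was 0.879-fold (0.774 to 1.0) in TRP1high relative to TRP1low with K8 and 1.34-fold (1.19 to 1.51) with M9. It thus differed by less than 2-fold between the receptors, on opposite sides of 1 with the 2 peptides.

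Trbj1-2 had 46 and 52 reads in TRP1high and 1060 and 1203 in TRP1low. It led TRP1low with 55.2% (53.0 to 57.4) and 56.3% (54.2 to 58.4) of Trbj reads, against 4.49% (3.38 to 5.94) and 4.09% (3.14 to 5.33) in TRP1high. In normalized counts it was 0.0317-fold in TRP1high relative to TRP1low with K8 (0.0230 to 0.0425) and 0.0408-fold with M9 (0.0303 to 0.0538). Of the 14 Trbj segments it was the one with the widest gap between the receptors over both peptides, at a log2 difference of -4.77 (SE 0.22) in limma.

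Trbj2-1 had 185 and 229 reads in TRP1high and 186 and 176 in TRP1low. Trbj1-1 had 175 and 222 reads in TRP1high and 116 and 96 in TRP1low. In normalized counts Trbj1-1 was 1.10-fold in TRP1high relative to TRP1low with K8 (0.866 to 1.40) and 2.18-fold with M9 (1.71 to 2.80). In TRP1high, 18.1% and 18.0% of Trbj reads lay on Trbj2-1 and 17.1% and 17.5% on Trbj1-1. For each 100 reads of Trbj2-7 there were 34.6, 34.4, 41.9 and 37.4 reads of Trbj2-1, and all 4 counting intervals overlapped. For Trbj1-1 the values were 32.7, 33.3, 26.1 and 20.4, and the interval of TRP1low with M9 (16.2 to 25.5) lay below those of both TRP1high libraries (27.4 to 38.9 and 28.5 to 38.9). Trbj2-7, Trbj2-1 and Trbj1-1 were therefore present in each library regardless of which segment led. The proportion of Trbj2-1 to Trbj2-7 ran from 34.4 to 41.9, and overlapping counting intervals do not show that it was fixed.

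The remaining 10 Trbj segments held at most 52 reads in any library. Trbj2-3 had 33, 19, 21 and 52 reads, Trbj2-2 had 17, 31, 7 and 18, Trbj1-3 had 12, 16, 23 and 38, and Trbj1-6 had 6, 14, 24 and 37. Trbj1-3 and Trbj1-6 were higher in both TRP1low libraries than in either TRP1high library. Trbj1-4 had 0, 9, 4 and 24 reads, Trbj1-5 had 6, 4, 10 and 2, Trbj2-4 had 1, 2, 6 and 12, Trbj2-5 had 2, 3, 7 and 6 and Trbj2-6 had 2, 0, 9 and 4. Of these, Trbj2-4, Trbj2-5 and Trbj2-6 were also higher in both TRP1low libraries, each at 12 reads or fewer. Trbj2-6 is annotated as a pseudogene. Trbj1-7 had 4, 3, 2 and 0 reads.

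**Figure D4:**
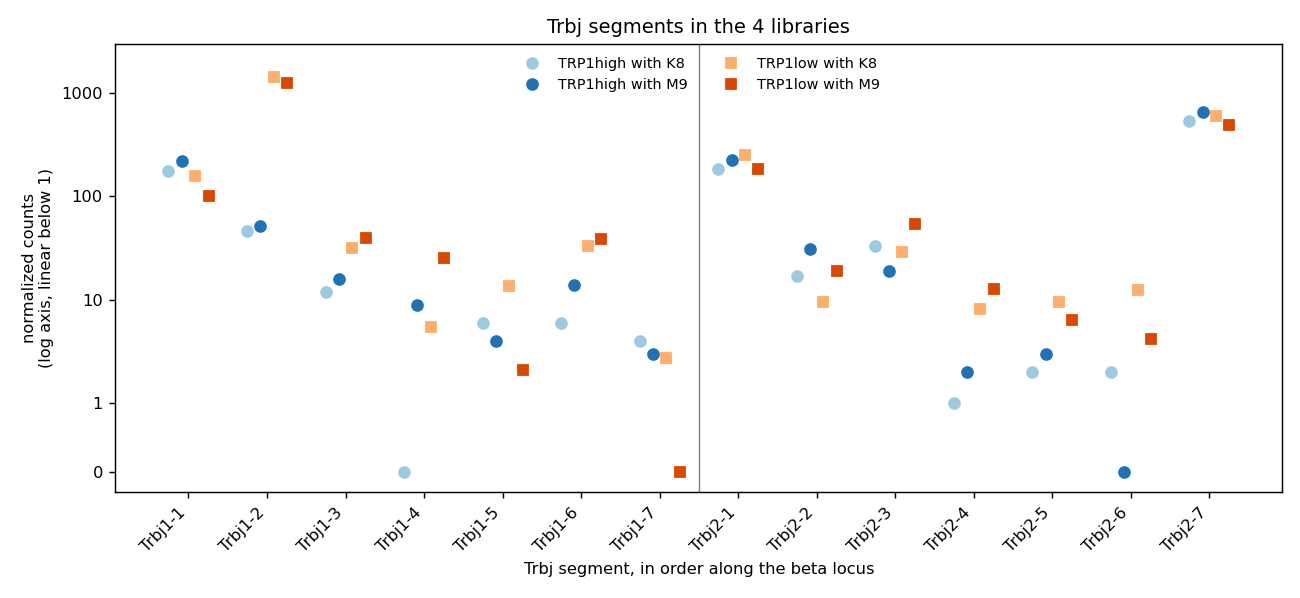
Normalized counts (log axis, linear below 1) of the 14 Trbj segments in the 4 libraries, in order along the beta locus, with a line between the first and the second cluster. Trbj2-7 and Trbj2-1 lie close together across libraries, and Trbj1-2 lies far apart between the receptors. Trbj1-1 is 2.18-fold higher in TRP1high than in TRP1low with M9.

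By cluster, the 7 Trbj1 segments held 24.3% (21.8 to 27.0) and 25.2% (22.9 to 27.7) of Trbj reads in TRP1high and 64.6% (62.4 to 66.7) and 65.5% (63.4 to 67.5) in TRP1low. The constant genes divided in the same direction. Trbc1, which lies behind the first cluster, held 8.40% (8.06 to 8.76) and 9.01% (8.73 to 9.30) of the reads of Trbc1 and Trbc2 together in TRP1high, and 63.3% (62.8 to 63.8) and 62.7% (62.3 to 63.1) in TRP1low. In TRP1high the J share of the first cluster was therefore above the share of Trbc1, and in TRP1low the 2 shares differed by less than 3 percentage points. In TRP1low the 5 segments of the first cluster 3′ of Trbj1-2 held 63 and 101 reads, which is 7.33% (5.77 to 9.27) and 10.8% (8.97 to 13.0) of the minor Trbj reads. Without Trbj2-7, the highest minor segment there, these values were 15.2% and 21.7%. No Trbj segment lies 3′ of Trbj2-7.

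Levels of different segments can be set side by side only per length, and here they are normalized counts per kilobase of annotated exon. J segments of 47 to 64 bases may be shorter than a read, and how that moved their values was not tested. In TRP1high, Traj42 stood at 12493 and 14440, the Trav6-6 copies together at 4838 and 6194, and Trac at 14116 and 18460. In TRP1low, Traj26 stood at 3921 and 5069, Trav6-5 at 3927 and 4652, and Trac at 8436 and 9953. The leading alpha V and J segments of TRP1low were thus near each other per length, and in TRP1high the J segment was the higher.

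For the beta chain, Trbv13-3 stood at 16194 and 24114, Trbj2-7 at 11362 and 14021, and Trbc2 at 31657 and 49549 normalized counts per kilobase in TRP1high. In TRP1low, Trbv12-1 stood at 30537 and 28526, Trbj1-2 at 30204 and 26286, and Trbc1 at 42971 and 44608. The constant gene was the highest of these 3 in every library. Trbv12-1 and Trbj1-2 differed by less than 10% of each other with either peptide.

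The totals of each kind were then compared between the receptors. The Trav total was 1.06-fold in TRP1high relative to TRP1low with K8 (0.992 to 1.13) and 1.12-fold with M9 (1.06 to 1.19). The Traj total was 2.75-fold (2.38 to 3.19) and 2.49-fold (2.22 to 2.80), and Trac was 1.67-fold (1.62 to 1.73) and 1.85-fold (1.81 to 1.90). In the beta chain the direction was the other way, at 0.544-fold (0.527 to 0.562) and 0.820-fold (0.798 to 0.844) for Trbv and 0.389-fold (0.361 to 0.420) and 0.560-fold (0.522 to 0.601) for Trbj. Trbc1 and Trbc2 together were 0.478-fold (0.470 to 0.486) and 0.719-fold (0.709 to 0.729). The lower sum came from Trbc1, at 0.0634-fold (0.0606 to 0.0664) and 0.103-fold (0.0997 to 0.107), while Trbc2 alone was higher in TRP1high, at 1.19-fold (1.17 to 1.22) and 1.75-fold (1.72 to 1.79). TRP1high libraries thus held more Traj, Trac and Trbc2 and less Trbv, Trbj and Trbc1 than TRP1low libraries with the same peptide.

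The totals were also compared between the peptides. In TRP1high, M9 relative to K8 gave 1.19-fold for Trav (1.12 to 1.26), 1.19-fold for Traj (1.09 to 1.30), 1.40-fold for Trbv (1.36 to 1.45) and 1.23-fold for Trbj (1.13 to 1.34). In TRP1low it gave 1.13-fold (1.05 to 1.2), 1.31-fold (1.12 to 1.55), 0.932-fold (0.906 to 0.959) and 0.854-fold (0.803 to 0.909). The constant genes were also higher with M9, at 1.31-fold and 1.18-fold for Trac and 1.58-fold and 1.05-fold for Trbc1 and Trbc2 together, in TRP1high and TRP1low. Measured against the constant genes of the same library, the direction turned for Trav in TRP1high (0.910) and TRP1low (0.954), and for Traj (0.908), Trbv (0.891) and Trbj (0.780) in TRP1high. In bulk samples, more cells that carry a transcript and more of it per cell cannot be told apart.

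**Figure D5:**
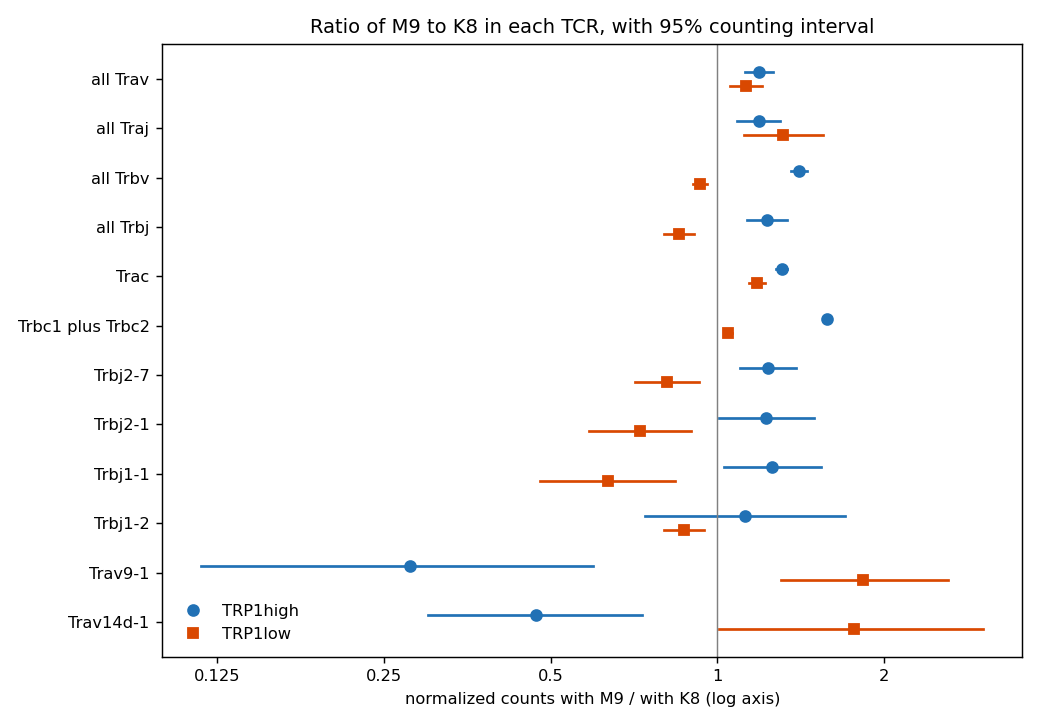
Ratio of normalized counts with M9 to those with K8 (log axis) in TRP1high (circles) and TRP1low (squares), with 95% exact counting intervals, for the totals of each kind, the constant genes and single segments. The beta V and J totals lie above 1 in TRP1high (1.40 and 1.23) and below 1 in TRP1low (0.932 and 0.854). The ratios drawn are not scaled to the constant genes, and with that scaling both totals were below 1 in both receptors.

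Single members were counted as apart when they differed at least 2-fold on the log2(value + 1) scale and 1 library of the pair held 10 normalized counts or more. Of the 100 members, 89 had a mean of 1 normalized count or more and were compared. This filter can pass a member through the libraries where it is high, so the counts are descriptive. Between TRP1high and TRP1low, 39 members were apart with K8, which is 43.8% of the 89 against 18.9% of all 16102 genes. Of these, 13 were higher and 26 lower in TRP1high, beside 10.6% and 8.35% of all genes. With M9, 34 were apart, which is 38.2% against 12.9%. Of these, 15 were higher and 19 lower, beside 7.37% and 5.58% of all genes. The median log2 differences of the 89 were -0.57 and -1.08, beside -0.00 and -0.03 over all genes. Lower members outnumbered higher ones with both peptides, and the Trav segments gave most of them, at 17 of 26 and 10 of 19.

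Between M9 and K8 the members stood nearer to all genes. In TRP1high 11 members were apart, which is 12.4% against 9.87%, with 4 higher and 7 lower with M9 beside 5.14% and 4.73% of all genes. In TRP1low 19 were apart, which is 21.3% against 15.1%, with 7 higher and 12 lower beside 7.67% and 7.43%. Medians were 0.00 and 0.03, beside -0.02 and 0.02. The leading segments Trav6-6, Trav6-5, Traj42, Traj26, Trbv13-3, Trbv12-1, Trbj2-7 and Trbj1-2 were not among them in the receptor that they led. With a pseudocount of 5 in place of 1, the count in TRP1high was 5. The share of all genes at that pseudocount is not given here, so whether members exceeded all genes there cannot be told. Of the named members, Trav13-3 and Traj39 passed this fold upwards with M9 in both receptors, at 5 and 13 and at 0 and 36 reads for Trav13-3 and at 5 and 23 and at 3 and 10 for Traj39.

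A limma fit of receptor and peptide over all 4 libraries, which leaves 1 residual degree of freedom, was adjusted over 16102 genes by Benjamini-Hochberg and called 0 genes for either term. An unadjusted p under 0.05 was reached by 2044 genes for the receptor, 42 of them members, and by 1342 for the peptide, 11 of them members. For the receptor the fitted log2 difference, TRP1high minus TRP1low, was 9.75 (SE 0.20) for Traj42, 10.55 (SE 0.56) for Trbv13-3 and -11.99 (SE 0.40) for Trbv12-1. Their adjusted p in limma was 0.321, 0.340 and 0.321. The residual of this fit is the disagreement between pairs of libraries, not the spread between cultures.

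Genes that act with the segments were followed in a list of 23 genes of the receptor complex and of V(D)J recombination, of which 21 were measured. Rag1 and Rag2, the recombinase genes, were not analysed here. With M9 against K8, 3 of 21 were at least 2-fold lower in TRP1high and 2 in TRP1low, and 0 were higher in either. Over all genes tested, 4.73% and 7.43% were lower with M9 in TRP1high and TRP1low. Between the receptors, 3 were lower in TRP1high with K8, and with M9 1 was higher and 3 were lower, against 8.35% of all genes lower with K8 and 7.37% higher and 5.58% lower with M9. Dntt, which encodes the terminal transferase that adds bases at V(D)J joints, had 127 and 30.6 reads with K8 and M9 in TRP1high and 495 and 101 in TRP1low. It was lower with M9 in both receptors, by log2 differences of -2.03 and -2.66, and lower in TRP1high with both peptides, by -2.41 and -1.77.

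Trat1, a T cell receptor-associated adaptor, went the same way, with 205, 61, 973 and 173 reads. Trbc1 was the third gene lower in TRP1high, at log2 differences of -3.98 with K8 and -3.28 with M9. Cd3e, a signalling chain of the receptor complex, stood at 6753, 10419, 3867 and 5179 normalized counts and was 1.01 higher on the log2 scale in TRP1high with M9. Ptcra, which encodes the pre-receptor alpha chain of thymocytes, stood at 28.9, 15.8, 21.9 and 17.8 normalized counts. The summed B cell markers were likewise lower with M9 in both receptors. In TRP1high all 11 were at least 2-fold lower, but in TRP1low 5 were lower and 1 was higher. There Igkc and Spib fell, by log2 differences of -2.82 and -4.52. Ebf1 (2.63), Pax5 (0.804) and Fcer2a (0.0873) went the other way in TRP1low. The part of the B cell markers in the differences of Dntt and Trat1 was not tested.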

How the data were processed

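RNA sequencing measured sorted mouse T cells in 4 libraries, 1 for each combination of 2 receptors and 2 peptides, grouped by the sample titles in the labels. The deposited values are log2 normalized counts, per the file headers. Their steps read as the log2 of 1 added to a scaled estimated count. The submitters' processing notes name Salmon 0.8.2, DESeq2 1.20.0 and mm10, while settings, annotation and filters are not given in the sources.

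Normalized counts are 2 to the power of the value, minus 1. The worth of 1 read, the commonest low value, was 0.998 and 0.989 normalized counts in TRP1high (K8, M9) and 1.37 and 1.05 in TRP1low. Of low values (up to 50), 56.2% to 56.4% came within 0.01 of whole reads, so no count test was run. Shares have 95% Wilson intervals and ratios 95% exact (Clopper-Pearson) intervals on rounded reads. A floor of 3 reads stands for a count of 0.

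Genes averaging 1 normalized count or more were kept (16102). A gene counted as apart at 2-fold or more where either library reached 10 normalized counts, with no p-value. limma 3.58.1 in R 4.3.3 fitted receptor and peptide and was tested on simulated data. Positions and sequences came from GENCODE M21, using the transcript with the longest coding part. Copies are V segments at least 95% identical to the leading segment. Other processing used Python 3.11.15, pandas 2.3.3, scipy 1.17.1 and Biopython 1.88. Alternatives were the pseudocount, the filters, the minimum, reads of at least 3, counts per kilobase, summed copies and scaling to the constant genes or to library reads.

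Segments were named when they held at least 1% of the reads of their kind and at least 3 reads in 1 library, up to 12 per kind, with all Trbj segments. The members and the lists were chosen with earlier results of these data known. One B cell marker is not reported here and was left out of the summed B cell markers.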

Additional observations from a re-analysis of the deposited data

Results flagged for a closer look

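Of 39 totals and segments with enough reads to compare, 8 had a ratio of M9 to K8 on opposite sides of 1 in the 2 receptors, with counting intervals that left out 1 in both. How many of all genes meet the same rule was not counted, so whether 8 of 39 is unusual cannot be told. Each pair of libraries gives 1 ratio, and the difference between the receptors was not tested against replicates. For the Trbv total, the ratio in TRP1high (1.40) was 1.51 times that in TRP1low (0.932), and for the Trbj total (1.23 and 0.854) it was 1.44 times. Among beta J segments, it was 1.98 times for Trbj1-1 (1.26 and 0.635), 1.69 times for Trbj2-1 (1.23 and 0.726) and 1.52 times for Trbj2-7 (1.23 and 0.812). These 3 segments make up part of the Trbj total. Trbc1 and Trbc2 together stood at 1.58-fold with M9 in TRP1high and at 1.05-fold in TRP1low. Scaled to them, the Trbv and Trbj totals were below 1 in both receptors. The opposite directions of these 2 totals therefore depend on the scaling.

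Minor Trav segments differed in the other direction. For Trav9-1 the ratio was 0.279 in TRP1high and 1.83 in TRP1low, so that the first was 0.152 times the second. For Trav14d-1 and its exact copy Trav14n-1 it was 0.471 and 1.77, or 0.266 times, which is a single measurement that appears in both rows.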

How the results depend on the processing

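No paired analysis was possible because each group held 1 library, and no library could be left out for the same reason. Shares of the leading segment moved beyond their counting interval when near-identical copies were summed (Trav6-6, 76.7% and 82.6% in TRP1high with K8 and M9) and when 1 was not taken away (Traj42, 88.1% and 86.2%, with minor Traj shares of 11.9% and 13.8%). Per kilobase, and with segments of at least 3 reads, they stayed within it. The position of minor reads moved when the highest minor segment was left out, an alternative that for Trav was added after seeing the data. The share on the 3′ side of the leading Trav segment was then 18.3% and 11.9% in TRP1high, against 11.4% and 5.56%, and 43.0% and 49.7% in TRP1low, against 38.0% and 38.8%. For Traj in TRP1high it was 76.3% and 59.1%, and for Trbj in TRP1low 15.2% and 21.7%. Relative to the constant genes, the ratio of M9 to K8 turned for Trav (0.910 in TRP1high and 0.954 in TRP1low) and in TRP1high for Traj (0.908), Trbv (0.891) and Trbj (0.780). It moved to 1.11 for Traj and 0.890 for Trbv in TRP1low, and scaled by library reads to 0.892 for Trbv in TRP1low. The constant genes were themselves higher with M9. With no minimum of 10 counts, 2762 and 3930 of 16102 genes were 2-fold apart between peptides in TRP1high and TRP1low. Beside them, 26 and 39 of 89 members were apart. Between receptors with M9, 3238 of the 16102 genes and 64 of the 89 members were apart. With K8, 61 of the 89 members were apart. The count of all genes for K8 is not given here, so the 61 cannot be set against it. With a pseudocount of 5, 5 members were apart between peptides in TRP1high, without a share of all genes beside them. limma called 0 genes under every filter and pseudocount tried, with smallest adjusted p from 0.103 to 0.388 for the receptor and from 0.526 to 0.603 for the peptide. Segments with few reads carry wide counting intervals, and differences of a few reads were not detectable at this depth.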

Other observations

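Segments of other antigen receptors were counted in the same way. The 6 gamma segments summed to 82 and 12 reads with K8 and M9 in TRP1high and to 3 and 2 in TRP1low. In both TRP1low libraries they were thus no higher than the floor of 3 reads. The 7 delta segments, which lie within the alpha locus, summed to 33 and 22 reads in TRP1high and to 152 and 83.0 in TRP1low. The order of the receptors was the reverse of that for the gamma segments. Trdc, the delta constant gene, stood at 676 and 464 normalized counts in TRP1high and at 1179 and 795 in TRP1low.

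Immunoglobulin segments, which B cells rearrange, followed the peptide for the light chains. The 15 kappa segments summed to 130 and 5 reads with K8 and M9 in TRP1high and to 263 and 12 in TRP1low. The 2 lambda segments summed to 14.2 and 1 reads in TRP1high and to 59.5 and 0 in TRP1low. The 6 heavy chain segments were nearer level in sum, at 94.9 and 82.0 reads in TRP1high and 67.1 and 50 in TRP1low. Most of that sum lay on the J segment Ighj1, at 49, 62, 39 and 30 reads. The V segments Ighv10-1 (3, 0, 10 and 0 reads) and Ighv5-17 (3, 0, 9 and 0) were at 0 with M9.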
